A study of Capsicum annuum with 5 samples.

Results

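The miR172 family of pepper (Capsicum annuum) was taken as the precursors whose ID was can-miR172 plus a letter, and the mature sequences listed under them. There were 9 such hairpins, miR172a to miR172i, among 165 in the deposited annotation. They carried 18 mature lines of 314, which made up 14 distinct sequences of the 245 that remained when each was taken once per family. Small RNA of the inbred line Zunla 1 was sequenced from developing roots, developing stem, mature leaves, fruits and fully open flowers, with 1 library per tissue. Roots, stems and leaves came from soil-grown plants at full bloom, kept at 22 °C with 16 h of light, and no temperature or light was recorded for the fruits and flowers. The fruits carried contradictory stages, mature green on the sample and a reddening fruit 30 days after pollination in the study text, so they are called fruit only.

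miR172 is a conserved plant microRNA that silences AP2-like transcription factors, among them APETALA2 and the TOE proteins of Arabidopsis, which repress flowering and help to set floral organ identity. In Arabidopsis it acts downstream of miR156 in the age pathway, where miR156 falls and miR172 rises as the shoot matures. The strand known to guide silencing is cut from the 3′ arm of the hairpin, and the strand from the 5′ arm is its passenger.

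The 3′ arms held 5 distinct sequences, all 21 nt long, which are shown because the tissues differed in which of them they contained. They are written 5′ to 3′ in the DNA letters of the annotation, with the seed (bases 2 to 8) in capitals.
miR172a, b, c and d, 3′ arm: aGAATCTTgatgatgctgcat
miR172h, 3′ arm: tGAATCTTgatgatgctgcat
miR172i, 3′ arm: gGAATCTTgatgatgctgcat
miR172e and f, 3′ arm: aGAATCTTgatgatgctgcag
miR172g, 3′ arm: aGAATCTTgatgctgctgcat
One seed was common to all 5, and no sequence of another family in the annotation carried it. Against the form common to miR172a, b, c and d, with positions counted from 1 at the 5′ end, miR172h differed by A1T, miR172i by A1G, miR172e and f by T21G and miR172g by A13C. So 2 of the variants differed only in the first base, which in plants is known to influence the ARGONAUTE protein that takes up a small RNA.

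The 5′ arms varied more, with a different sequence at each of the 9 hairpins, so a 5′ tag names its hairpin where a 3′ tag of miR172a to d or of miR172e and f does not. The 3 most abundant are shown, again with bases 2 to 8 in capitals.
miR172g, 5′ arm: gCAGCATTatcaagattcaca
miR172f, 5′ arm: gGAGCATCatcaagattca
miR172e, 5′ arm: gCAGCATCttcaagattcaca
Of all 14 sequences 13 were 21 nt long, and the 5′ sequence of miR172f had 19 nt. Among the 36 pairs of hairpins the 3′ sequences were between 90.5% and 100% identical and the 5′ sequences between 76.2% and 95.2%. The stretch between the arms was between 27.0% and 62.3% identical. Its length ran from 30 to 99 nt, and unequal lengths lower an identity taken over the whole alignment. The range is therefore not comparable with those of the arms.

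The hairpins stood on 5 chromosomes, 7 of them on the minus strand. Chromosome 12 held miR172a (chr12:220884475-220884578) and miR172b (chr12:220904298-220904424), 19719 bp apart, and no other 2 members were so near. Chromosome 5 held miR172e (chr5:7124041-7124141), miR172f (chr5:202644038-202644137) and miR172g (chr5:216378798-216378902). On chromosome 6 lay miR172d (chr6:8068871-8068990) and miR172i (chr6:195144387-195144560). miR172c lay on chromosome 11 (chr11:1235857-1236009) and miR172h on chromosome 10 (chr10:188119126-188119211). Which genome build these positions refer to is not stated in the annotation or the labels.

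Precursors were 86 to 174 nt long, with a median of 105 nt, beside a median of 100 nt for all other hairpins. Their minimum free energy, predicted with RNAfold, had a median of -40.5 kcal/mol per 100 nt, against -46.0 for the other hairpins. In the deposited folds each 3′ sequence reached 2 bases beyond its partner at the base of the stem and each 5′ sequence 2 bases beyond at the loop end, in 9 of 9 hairpins. Such 2-base ends are the usual mark of Dicer-like cutting. They were not counted in the other families, so whether they set miR172 apart from the rest of the annotation was not tested. Between 16 and 18 bases of the 3′ sequence were paired with the 5′ sequence. The RNAfold structures differed from the deposited folds in 9 of 9 hairpins, at 2 to 36 positions, but gave the same 2-base ends in each of them and again 16 to 18 paired bases. In 4 precursors, miR172c, d, g and h, the hairpin began with TTGC and ended with GCAA. In these the 5′ sequence started at base 9, but in miR172a, b, e and f at bases 3 to 5. The annotated ends of the latter may therefore stop short of these bases, and the other families were not searched for them. The precursors of miR172h and miR172g, members whose values set root and leaf apart, are printed in full, with both mature sequences in capitals, the first from the plus strand and the second from the minus strand.
miR172h precursor: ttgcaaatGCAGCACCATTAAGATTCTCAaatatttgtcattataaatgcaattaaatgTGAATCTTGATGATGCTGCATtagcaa
miR172g precursor: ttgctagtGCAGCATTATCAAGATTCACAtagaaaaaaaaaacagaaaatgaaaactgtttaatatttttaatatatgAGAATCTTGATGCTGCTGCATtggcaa
miR172h was the shortest precursor of the family, with 30 nt between its arms, and miR172i the longest, with 99 nt.

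**Figure D1:**
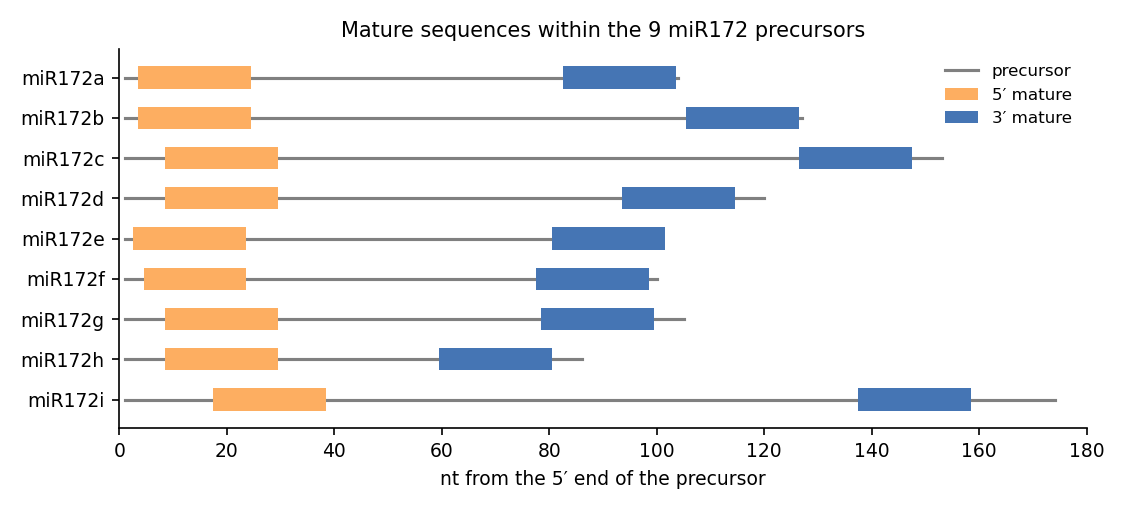
Position of the 5′ and 3′ mature sequences within the 9 miR172 precursors, in nt from the 5′ end of each precursor. The arms are of nearly equal size, and the precursors, 86 to 174 nt long, differ mainly in the stretch between them.

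Root contained the most miR172. With each distinct sequence counted once, the family had 6889 tags in root, 3525 tags in stem, 5906 in leaf, 1690 in fruit and 2795 in flower. The listed tags of all miRNA families, each sequence once, numbered 231560 in root, 318815 in stem, 542531 in leaf, 311417 in fruit and 678695 in flower. These totals cover annotated miRNAs only, and the full depth of the libraries is unknown. Per 1000000 listed tags of the library (normalised tags from here on), miR172 had 29750 in root (95% Clopper-Pearson interval 29062 to 30451) and 11057 in stem (10697 to 11426). It had 10886 in leaf (10612 to 11166), 5427 in fruit (5172 to 5691) and 4118 in flower (3967 to 4273). Among the 64 families this placed miR172 at rank 5 in root and between ranks 8 and 11 in the other tissues.

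With 1 library per tissue there is no replicate check, no test between tissues was possible, and every interval covers counting error only. Within that limit root lay above stem by 2.69-fold (2.58 to 2.80), and stem and leaf did not differ beyond counting error, with 1.02-fold (0.974 to 1.06). Leaf lay above fruit by 2.01-fold (1.90 to 2.12) and fruit above flower by 1.32-fold (1.24 to 1.40).

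Root stayed highest under each of the 4 scalings, while the order below root did not hold. The lead of root was 2.33-fold to 3.25-fold over stem, 1.98-fold to 3.11-fold over leaf, 3.24-fold to 6.19-fold over fruit and 3.03-fold to 10.4-fold over flower. Under median-of-ratios size factors flower stood close to leaf and stem, with a slightly higher value, and above fruit. There were 7676 normalised tags in flower beside 7492 in leaf, 7159 in stem and 5630 in fruit. Division by listed totals placed the median of 31 families at -1.13 log2 units from its mean over the tissues in flower, -0.29 in fruit, 0.12 in root, 0.31 in leaf and 0.39 in stem, a shift that median-of-ratios size factors remove.

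**Figure D2:**
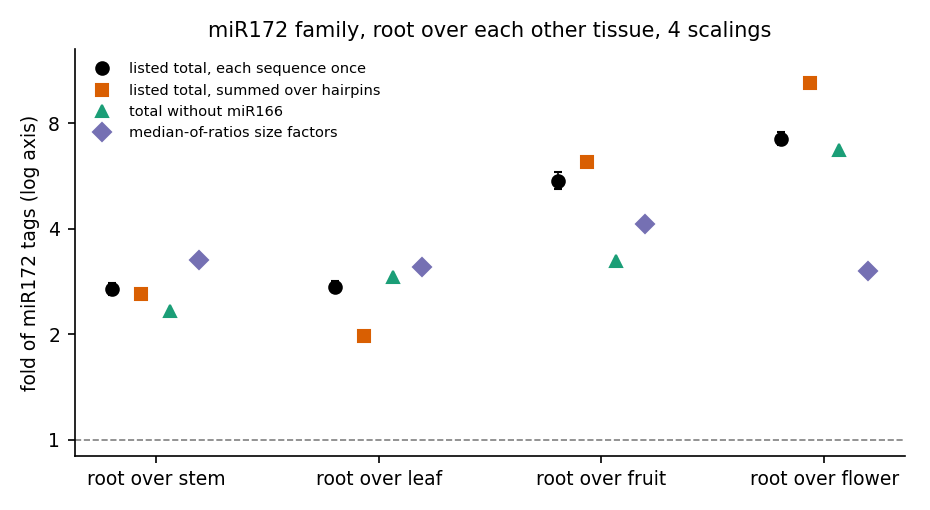
Fold of miR172 tags in root over each other tissue (log axis) under 4 scalings, with the 95% counting interval for the listed total with each sequence once. Every point lies above 1, from 1.98 for root over leaf with tags summed over hairpins to 10.4 for root over flower.

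With each sequence counted once, the 3′ sequence of miR172h made up a larger part of the lead of root than any other member. It had 3287 tags in root, 106 tags in stem, 22 in leaf, 31 in fruit and 386 in flower. In normalised tags this was 14195 in root (95% Poisson interval 13714 to 14689), 332 in stem, 40.6 in leaf, 99.5 in fruit and 569 in flower. Root was therefore far above each other tissue, by 25.0-fold over flower (22.5 to 27.8), by 42.7-fold over stem (35.2 to 52.3), by 143-fold over fruit (100.3 to 210.2) and 350.1-fold over leaf (230.8 to 559). Over the 4 scalings the smallest of these folds, over flower, ranged between 10.5 and 36.9.

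Of the difference of 18694 normalised tags between root and stem in the whole family, the 3′ sequence of miR172h supplied 74.2%. It supplied 75.0% of the difference between root and leaf, 57.9% of that between root and fruit and 53.2% of that between root and flower. The form common to miR172a, b, c and d supplied 29.5%, 30.8%, 44.2% and 50.4% in the same order. These parts sum to more than the whole because other members were lower in root. The part of miR172h lay between 53.2% and 81.2% under the 3 scalings that count each sequence once. With tags summed over hairpins, where the common form enters 4 times, it lay between 20.7% and 38.9%.

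The common 3′ form of miR172a, b, c and d had 3394 tags in root, 2916 tags in stem, 4803 in leaf, 1213 in fruit and 1179 in flower. It was the most abundant miR172 sequence in each of the 5 libraries, though in root it did not differ from miR172h beyond counting error. There miR172h had 96.8 tags per 100 of the common form (92.3 to 101.6). Root was highest here too, with 14657 normalised tags (14168 to 15159) beside 9146 in stem and 8853 in leaf. The lead was modest, 1.60-fold over stem (1.52 to 1.68) and 1.66-fold over leaf (1.58 to 1.73). Over flower it was wider, with 8.44-fold (7.89 to 9.02). The scalings spread these 3 folds over 1.39 to 2.24, 1.66 to 1.88 and 3.54 to 12.5.

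miR172i, whose 3′ sequence also differs from the common form only in its first base, was likewise highest in root. It had 172 tags in root, 9 tags in stem, 22 in leaf, 5 in fruit and 6 in flower. Root lay above leaf, the next tissue, by 18.3-fold with a lower bound of 11.7, and the scalings gave 18.3 to 20.8. Its precursor was 41.7% identical to that of miR172h, the lowest value among the 36 pairs. These were the longest and the shortest precursor, with 174 and 86 nt. Unequal lengths lower an identity taken over the whole alignment, so the value does not tell how related the 2 are.

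Because the other members share a library with the common form, the divisor of the library cancels in their number per 100 tags of it, with each sequence counted once. For miR172h this was 96.8 in root (92.3 to 101.6), 32.7 in flower (29.1 to 36.8), 3.64 in stem, 2.56 in fruit and 0.458 in leaf. In root the sequence of this 1 hairpin was thus about as abundant as the form listed at 4 hairpins. If the common form was instead summed over its 4 hairpins, miR172h had 24.2 per 100 in root and 8.18 in flower, with root again highest. With each sequence counted once, 3′ tags of the family beginning with A made up 49.5% in root (48.3 to 50.7), against 83.4% in flower, 96.6% in stem, 97.8% in fruit and 99.1% in leaf. Summed over hairpins the A share was 79.7% in root, against 94.1% in flower and 99.1% to 99.8% in the other tissues. With each sequence once, tags beginning with T made up 48.0% in root (46.8 to 49.2) and 0.434% in leaf. In leaf the common form had 4803 tags, its largest raw count though not its highest normalised level, and each of the first-base variants had 22. How tags with a mismatch were assigned is not stated in the annotation or the labels. Whether it bears on sequences that differ by 1 base was not tested, and these counts do not settle it.

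**Figure D3:**
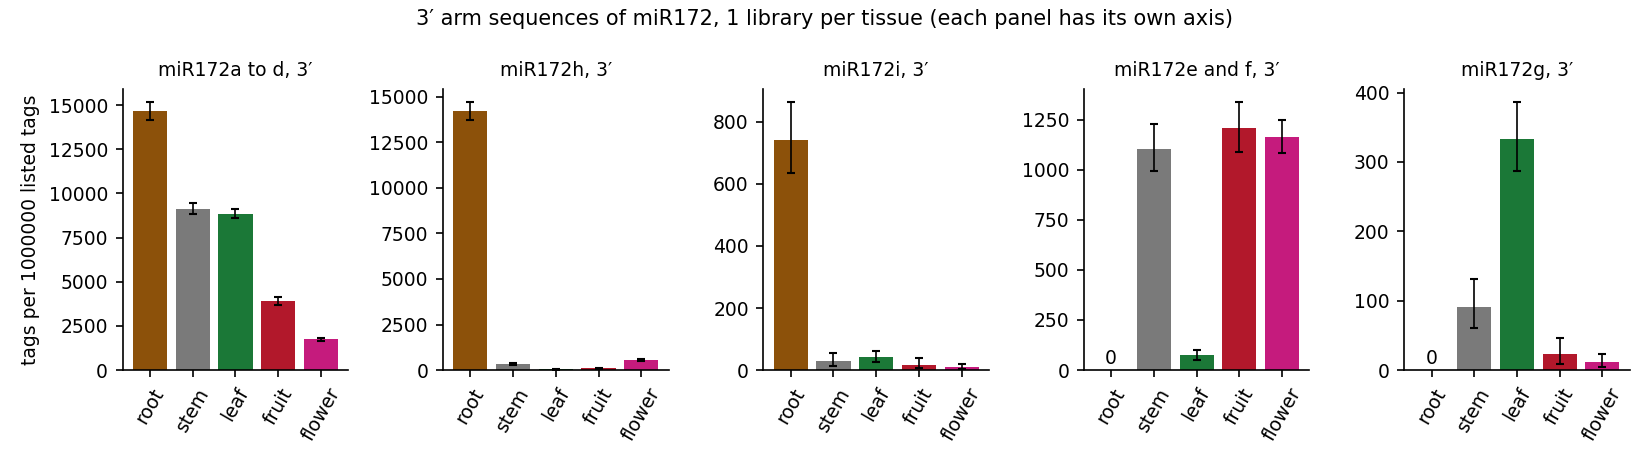
Normalised tags (per 1000000 listed tags) of the 5 distinct 3′ sequences in the 5 tissues, 1 library each, with 95% Poisson intervals and a separate axis per panel. miR172h and miR172i stand out in root and miR172g in leaf. miR172e and f are at similar levels in stem, fruit and flower under this scaling and listed at 0 in root.

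miR172e and f, on chromosome 5, showed the opposite picture. Their common 3′ sequence was listed at 0 in root, with 352 tags in stem, 40 in leaf, 376 in fruit and 789 in flower. In normalised tags it had 1104 in stem, 73.7 in leaf, 1207 in fruit and 1163 in flower. Fruit and flower did not differ beyond counting error (1.04-fold, 0.916 to 1.18), nor did fruit and stem (1.09-fold, 0.943 to 1.27), and the order among these tissues changed with the scaling. Median-of-ratios size factors gave 2167 in flower, 1253 in fruit and 715 in stem, and totals without miR166 gave 1960, 3207 and 1996 in that order. Fruit was above leaf by 16.4-fold (11.8 to 23.3), with 10.7 to 29.5 among the scalings. Per 100 tags of the common form, miR172e and f had 66.9 in flower (61.1 to 73.3), 31.0 in fruit, 12.1 in stem and 0.833 in leaf, and summed over hairpins 33.5 in flower and 15.5 in fruit.

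The 5′ sequences told these hairpins apart. miR172f had 60 tags in stem, 13 in leaf, 41 in fruit and 290 in flower, and miR172e had 13, 1, 2 and 91 in the same order, both listed at 0 in root. Both 5′ sequences were highest in flower, by 2.27-fold over stem for miR172f (1.71 to 3.05) and by 3.29-fold over stem for miR172e (1.83 to 6.41). That lead held under each of the 4 scalings, between 2.12-fold and 6.54-fold for miR172f and between 3.07-fold and 9.47-fold for miR172e. The 5′ arm held 32.6% of the tags of miR172e and f in flower, 17.2% in stem and 10.3% in fruit. As this share differed by tissue, the lead of the 5′ sequences does not rank the tissues for the hairpins themselves.

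miR172g, also on chromosome 5, was highest in leaf. Its 3′ sequence had 29 tags in stem, 181 in leaf, 7 in fruit and 8 in flower, and its 5′ sequence had 20, 780, 3 and 5 in the same order. Both were listed at 0 in root. For the 5′ sequence leaf lay above stem by 22.9-fold (14.7 to 37.7), and for the 3′ sequence by 3.67-fold (2.47 to 5.63). The scalings gave 18.7 to 31.8 for the first and 2.99 to 5.09 for the other.

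With shared 3′ tags credited in full to each hairpin, this hairpin alone had more 5′ than 3′ tags in a tissue with at least 10 tags. Which of its strands guides silencing was not tested. For hairpins that share their 3′ sequence, such as miR172e and f, the balance of a single hairpin cannot be told. In leaf the 5′ arm of miR172g held 81.2% of 961 tags (78.5 to 83.6). The share was 40.8% of 49 tags in stem (27.0 to 55.8), 38.5% of 13 tags in flower (13.9 to 68.4) and in fruit it supplied 3 of 10 tags. Over all families 62.1% of the 95 hairpins with at least 10 tags in leaf had more 5′ than 3′ tags, and for many families the 5′ arm is the guide, so this share is no measure of passenger strands.

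The hairpins differed widely in the share of their tags that came from the 5′ arm. Over the 5 libraries together the 5′ arm held 0.713% of the tags of miR172a to d (0.579 to 0.869), 1.26% for miR172h (0.935 to 1.67) and 3.17% for miR172i (1.28 to 6.42). For miR172e and f it held 24.7% (22.9 to 26.6), and for miR172g 78.2% (75.6 to 80.7). Tissues differed within a hairpin as well: for miR172e and f the share was 32.6% in flower (29.9 to 35.3), 17.2% in stem (13.7 to 21.1) and 10.3% in fruit (7.53 to 13.6). For miR172h it was 8.10% in flower (5.67 to 11.1) and 0.424% in root (0.232 to 0.711).

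**Figure D4:**
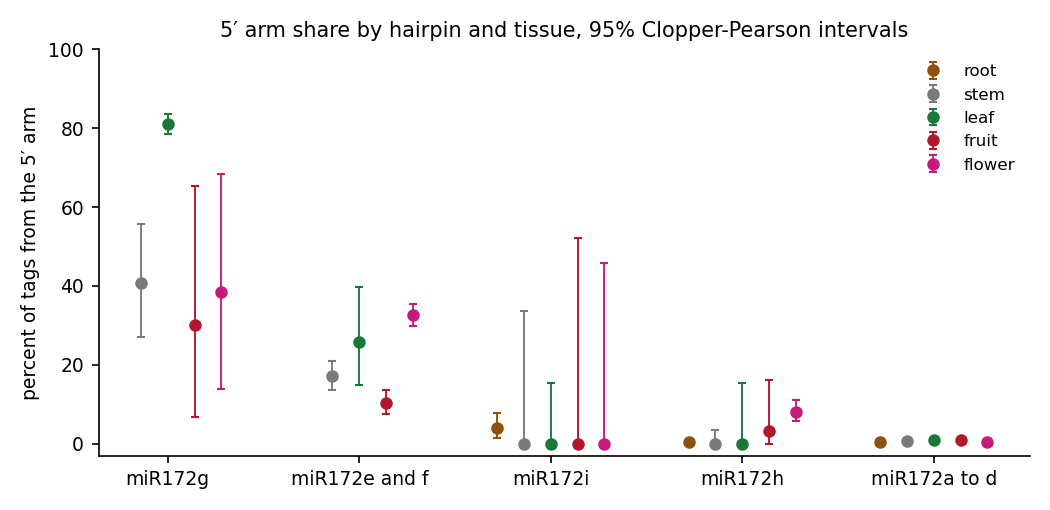
Percent of the tags of each hairpin or group of hairpins that came from the 5′ arm, by tissue, with 95% Clopper-Pearson intervals. miR172g in leaf lies at 81.2%, miR172e and f between 10.3% and 32.6%, and miR172a to d under 1%, with no point for root where a hairpin is listed at 0.

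In the family as a whole the guide arm dominated in each library. The 3′ arm held 99.5% of the miR172 tags in root (99.3 to 99.6), 96.8% in stem, 96.6% in fruit, 85.8% in leaf (84.9 to 86.7) and 84.7% in flower (83.3 to 86.0). The low values of leaf and flower came from different hairpins. Of the 838 tags from 5′ arms in leaf, miR172g supplied 93.1% (91.1 to 94.7). Of the 427 in flower, miR172f supplied 67.9% (63.3 to 72.3) and miR172e 21.3%.

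Since 5′ tags belong to a single hairpin, they could be set to single members of miR172a to d, though they were few. miR172a had 12 in root, 18 in stem, 12 in leaf, 9 in fruit and 2 in flower. miR172d had 23 in leaf and 2 in flower and was listed at 0 elsewhere. miR172c had 1, 2, 6, 1 and 3 in root, stem, leaf, fruit and flower, and miR172b had 2 in root, 3 in leaf and 1 in fruit. The counts of miR172a and miR172d in leaf overlapped within their 95% Poisson intervals (6.201 to 20.96 and 14.6 to 34.5). As the share of 5′ tags differed between hairpins, these numbers do not rank the hairpins. The remaining 5′ sequences were those of miR172h, with 14 tags in root, 34 in flower and 1 in fruit, and of miR172i, with 7 in root.

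**Figure D5:**
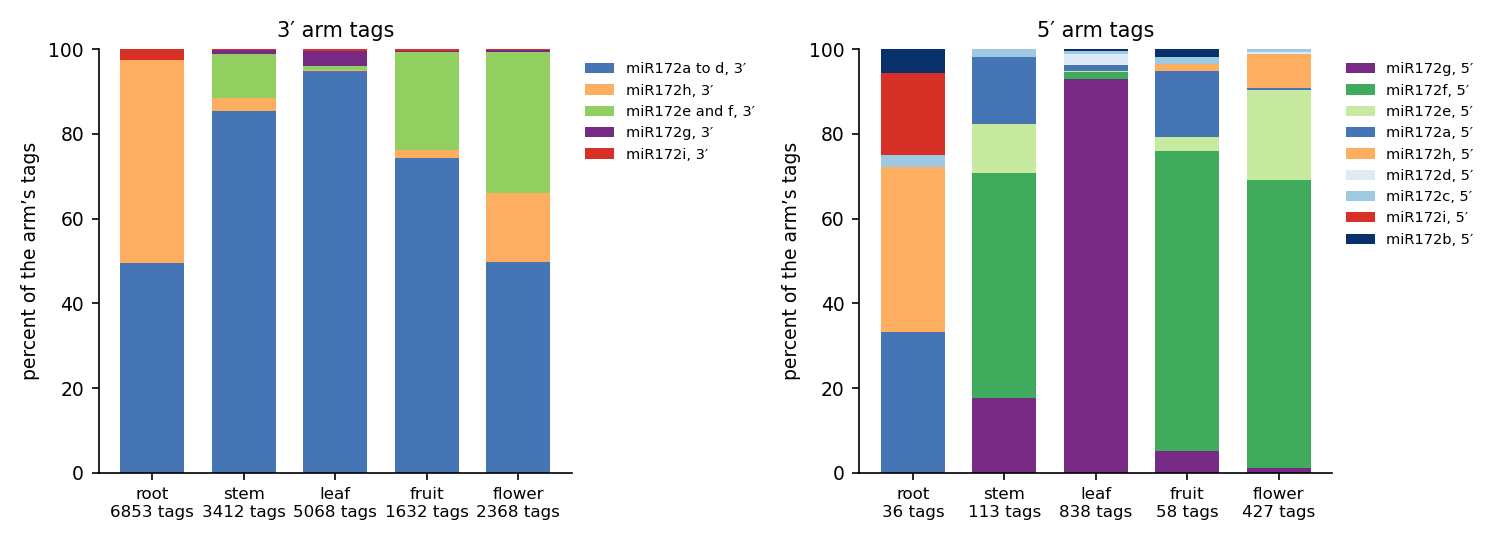
Percent of the 3′ arm tags (left) and 5′ arm tags (right) of miR172 supplied by each distinct sequence, by tissue, with the number of tags under each bar. Root is split between the common form and miR172h, flower holds miR172e and f besides, and 93.1% of the 5′ tags in leaf come from miR172g.

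Counted by sequence rather than by tags, fewer members were higher in root than lower, against each other tissue. At least 10 tags over the 5 libraries were reached by 12 of the 14 sequences. Of these 12, 3 (25%) were 2-fold or more higher in root than in stem and 5 (41.7%) lower. Among all 159 sequences tested 30.2% were higher and 26.4% lower. Against leaf 4 (33.3%) were higher and 7 (58.3%) lower, where 31.4% and 36.5% of all sequences were. The shares higher in root than in stem or leaf thus lay near those of all sequences. Against leaf all sequences likewise had fewer higher than lower. Against fruit 4 (33.3%) were higher and 5 (41.7%) lower, beside 43.4% and 23.9%. Against flower 4 (33.3%) were higher and 6 (50%) lower, beside 40.3% and 28.9%. Some calls in either direction rest on few tags. For example, 0 in root against 7 and 3 in fruit (3′ and 5′ sequences of miR172g) counted as lower. The 5′ sequence of miR172a, with 12 tags in root and 12 in leaf, counted as higher in root. The members higher in root than in each other tissue were the 3′ sequences of miR172h and miR172i. Between leaf and flower 7 members were higher in leaf and 5 lower, beside 40.3% and 23.9% of all sequences. Between fruit and flower 2 were higher in fruit and 5 lower, beside 26.4% and 30.8%.

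In root 6 of the 12 sequences were listed at 0, namely both arms of miR172e, f and g and the 5′ arm of miR172d, where 31.4% of all sequences were. In the other tissues at most 2 members were listed at 0, 2 in stem, 1 each in leaf and fruit and 0 in flower, beside 26.4%, 22.6%, 33.3% and 22.6% of all sequences. Hairpin totals of 1 to 4 tags were nearly missing from the annotation, with 1 such total in all against 39 totals of 5 to 8. The hairpins miR172e, f and g, listed at 0 in both arms in root, may thus have had a few tags there. This limit concerns whole hairpins, so it does not cover the 5′ arm of miR172d, whose 3′ arm was listed with 3393 tags in root.

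miR172 was set against miR156, the family upstream of it in the age pathway, within each library, where the divisor of the library cancels. There were 24.5 miR172 tags per 100 miR156 tags in fruit (23.2 to 25.8), 19.0 in root (18.5 to 19.5), 13.2 in leaf (12.8 to 13.5), 9.57 in stem (9.24 to 9.91) and 1.21 in flower (1.17 to 1.26). The low value of flower had on one side 2795 miR172 tags and on the other 230630 miR156 tags, and fruit had 1690 and 6911. Summed over hairpins, the values were 42.9 in fruit, 17.6 in root, 16.1 in leaf, 15.9 in stem and 1.05 in flower, so fruit and stem moved by over 1.5 times while the order of the tissues was the same. That order also held with guide arms alone, with 23.6 in fruit, 18.9 in root, 11.3 in leaf, 9.27 in stem and 1.03 in flower.

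Of the 7 families listed as regulators of flowering and phase change, miR156, miR157, miR159, miR169, miR319, miR390 and miR399, all but miR157 had hairpins in the annotation. miR319, which targets TCP factors, was the only one of them highest in root under the 4 scalings, with 73 tags in root, 22 in stem, 8 in fruit and 6 in flower and listed at 0 in leaf. miR156 was highest in flower and miR399, a regulator of phosphate balance, in fruit under the 4 scalings. The highest tissue of miR159, miR169 and miR390 changed with the scaling.

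Among the 56 other families with at least 10 tags, those whose levels over the 5 tissues were most like the miR172 family total were the candidate miRC3, miR482 and miR162. The measure was the root mean square difference of log2(normalised tags + 1) after centring each family, and it was 0.22 log2 units for miRC3, 0.27 for miR482 and 0.50 for miR162. miRC3 had 311 normalised tags in root, 97.2 tags in stem, 114 in leaf, 51.4 in fruit and 28.0 in flower. miR482, which targets NLR disease resistance genes, had 7005 in root, 3406 in stem, 4256 in leaf, 2126 in fruit and 1307 in flower. miR162, which targets DCL1, had 5204 in root, 2792 in stem, 2221 in leaf, 2126 in fruit and 1705 in flower.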

How the data were processed

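The deposited file was a miRNA annotation in which, per the file headers, a plant setting of MIREAP wrote precursors and mature sequences. Each mature line lists whole-number tag counts of the 5 libraries, and no scaling of these deposited counts is recorded. The labels and headers name no genome build, aligner, trimming or treatment of tags with several matches (not given in the sources used here). Repeated precursor lines (11 of 176) were dropped. Mature positions were recomputed from the precursors, since 9 of the 18 listed miR172 positions did not match the sequence. The authors' deposited counts list shared tags at every hairpin concerned, so each distinct sequence was taken once per family, with its largest count. Counts were divided by the listed total of the library. Alternatives were sums over all lines, median-of-ratios size factors over 31 families and totals without miR166.

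Shares have 95% Clopper-Pearson intervals, counts Poisson intervals and folds intervals from the exact binomial split, all for counting error only. Tags are not independent molecules. Energies came from RNAfold 2.7.2, identities from global alignments in Biopython 1.88, and intervals from scipy 1.17.1. The call counts and fold intervals were tested on simulated Poisson counts. This checks the calculation only, since such counts hold no variation between plants or libraries. Members with at least 100 tags were given by library, the remainder by counts, and 3 families by likeness. The members, lists and rules were chosen with earlier results of these data known. Some features (the shared precursor ends, the contributions to the difference under each scaling, the first bases) were chosen after their values were seen.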

Additional observations from a re-analysis of the deposited data

How the results depend on the processing

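Root was the highest tissue under each scaling run, and the lead over stem was 3.25 with median-of-ratios size factors and 2.33 with totals without miR166. The fold of stem over leaf turned round to 0.761 with sums over all lines and to 0.956 with median-of-ratios size factors, and was 1.25 with totals without miR166 and 1.15 with the 3′ arm alone. Leaf over fruit was 3.13 with sums, 1.33 with median-of-ratios, 1.11 without miR166 and 1.78 with the 3′ arm. Fruit over flower turned round to 0.733 with median-of-ratios, and was 1.68 with sums, 2.08 without miR166 and 1.502 with the 3′ arm. Summing counts the 3′ sequences repeatedly, so the 3′ share became 99.8% in root, 99.1% in stem, 95.9% in leaf, 99.0% in fruit and 94.0% in flower, with leaf and flower still lowest. miR172 per 100 miR156 tags became 42.9 in fruit, 17.6 in root, 16.1 in leaf, 15.9 in stem and 1.05 in flower with sums, in the same order of tissues. With guide arms alone it was 11.3 in leaf and 1.03 in flower. Taking the smallest count of a repeated sequence left all 9 values within their intervals. For miR172 this was hardly a check, as its repeated sequences had nearly the same count at each hairpin (3394 or 3393 for the common form in root). The arm shares could therefore hardly move, and the folds moved through the listed totals. A minimum of 50 tags left all 8 counts of members within 1.5 times, and the 3 most alike families were the same with a pseudocount of 10. Median-of-ratios factors shift all families of a library alike, so they hardly enter that likeness and were no check of it. No paired analysis was possible because each tissue has 1 library. For the same reason no replicate could be left out.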
